A study of Mus musculus with 6 samples.

Results

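The genes described here are the mitochondrial carriers of the Slc25 family, taken as the protein-coding genes of the deposited table whose symbol is Slc25a and a number. Of 47 such genes, 7 were set aside by the selection rule (Slc25a1, Slc25a4, Slc25a5, Slc25a11, Slc25a20, Slc25a42 and Slc25a44), which left 40 members among 45777 genes. The 2 groups were male wild-type C57Bl6/J mice given intraperitoneal ginsenoside Rb2, a saponin of ginseng root, and mice of the same kind given phosphate-buffered saline (PBS), both for 2 weeks. RNA of the brown fat of 3 mice per group was sequenced with a stranded mRNA kit; brown fat burns fuel to make heat. The sources used here give neither dose nor age. Nothing shows which animal each deposited column is, so p-values measure the spread between libraries of a group.

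Slc25 proteins are small membrane proteins that sit, with few exceptions, in the inner mitochondrial membrane and exchange metabolites between matrix and cytosol. They move phosphate and nucleotides for ATP synthesis, amino acids and dicarboxylates for redox shuttles, and cofactors that matrix enzymes need. Brown fat is rich in mitochondria, and its uncoupling protein Ucp1 belongs to the same protein family under another symbol.

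Of the 40 members, 36 passed the filter on low counts and were tested, and 2 of them, Slc25a51 and Slc25a16, rose with Rb2. None fell (edgeR quasi-likelihood test, adjusted p under 0.05). That is 5.56% of the tested members, where 10.4% of all 16707 tested genes were called, 5.33% higher and 5.11% lower. A further 12 members had an adjusted p between 0.05 and 0.1, so that 38.9% of the members lay under 0.1, against 20.3% of all tested genes. The median log2 fold change was 0.29 over the tested members and -0.01 over all tested genes. A positive value was found in 24 members (66.7%) and in 49.0% of all tested genes. In 19 of the 36 members (52.8%) the CPM values (read counts scaled to library size) of the groups did not overlap, 12 higher and 7 lower with Rb2. Of all tested genes 35.8% were separated in this way, 18.2% higher and 17.6% lower. Members of the family share metabolic roles and libraries, so these shares are a description.

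**Figure D1:**
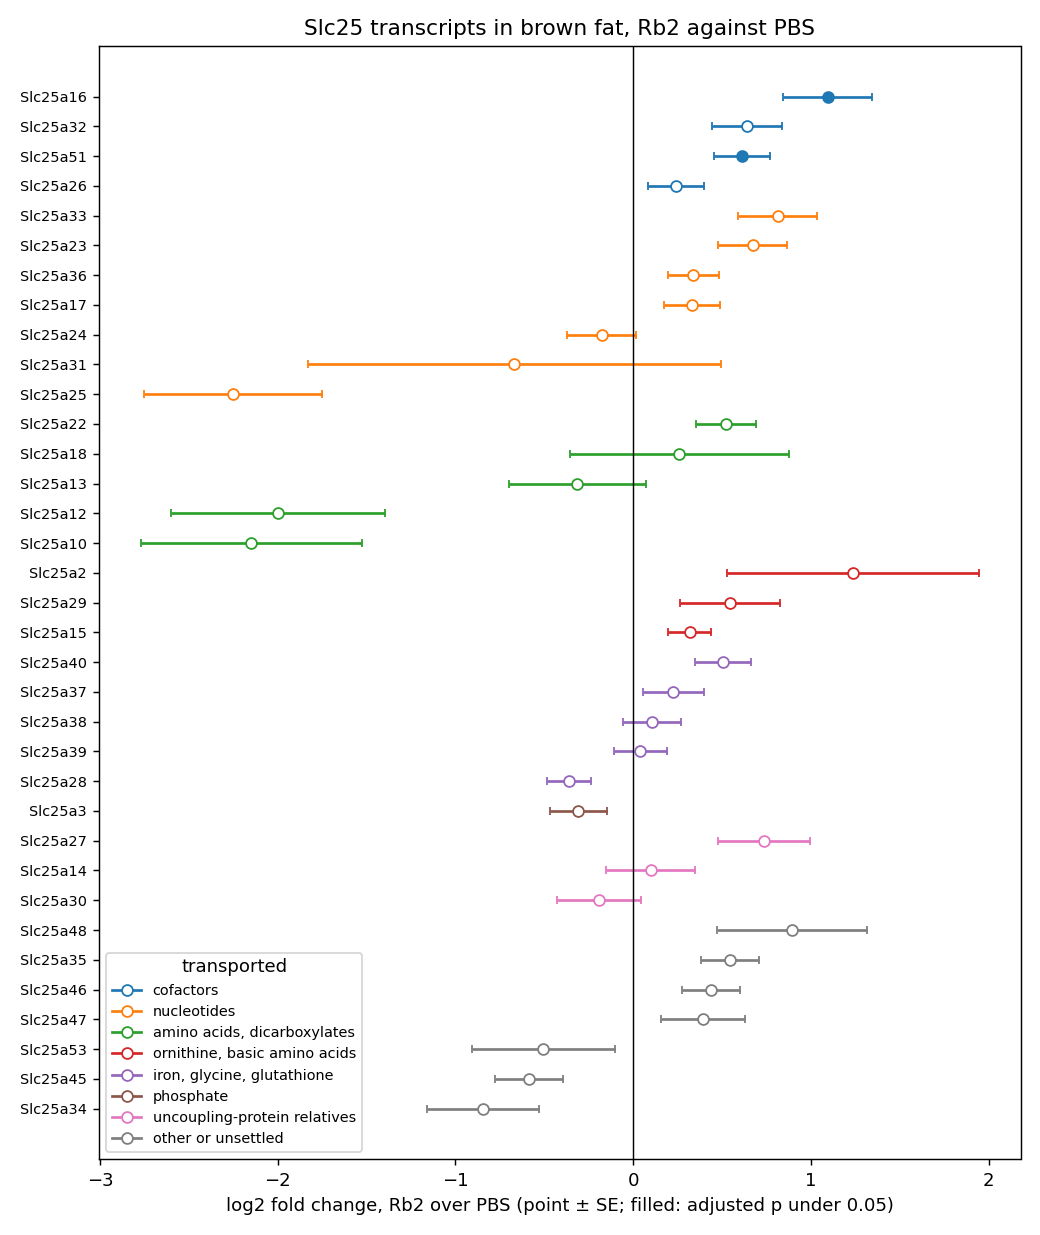
Log2 fold change (x axis, Rb2 over PBS, ± SE) of 35 of the 36 tested Slc25 members, coloured by what they transport. The filled points are Slc25a16 and Slc25a51, the members past the threshold, and all 4 cofactor carriers drawn lie right of 0.

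The libraries were not alike within groups. A list of 18 skeletal muscle markers summed to 52.4, 543 and 346 CPM in Rb2 1, 3 and 4, and to 2648, 8066 and 69.9 CPM in PBS 1, 2 and 4. Most of the sum in the 2 lowest libraries was 1 gene, Myl1, with 49.7 CPM in Rb2 1 and 59.9 CPM in PBS 4. The defining fast-muscle genes Ckm and Myh4 had no count in Rb2 1, and 0 of the 18 muscle markers passed the threshold. All 10 brown adipocyte markers were detected in every library, and 2 of them fell, Prdm16 (log2 fold change -1.13, adjusted p = 0.00584) and Elovl3 (-1.74, adjusted p = 0.0214). Of 10 endothelial and 10 macrophage markers, 4 in each list fell. Endothelial markers summed to 862, 996 and 1298 CPM in Rb2 1, 3 and 4, against 1568, 1772 and 1692 CPM in PBS 1, 2 and 4. The part of these cell types in the carrier values was not tested. In 9 of the 12 members that were separated upward PBS 4 was the highest PBS library, and in 6 of them Rb2 4 was the lowest Rb2 library. The shares of all genes with these patterns are not given here, so these counts have no background. In bulk tissue, fewer cells of a type and less RNA per cell cannot be told apart.

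RefSeq promoter sequences (GRCm38.p6) were found for 30 of the 40 members, which do not include Slc25a51. Shown here are the 250 bases before a start site of the rising member that has one, Slc25a16, and of Slc25a25, the member with the lowest ratio of Rb2 to PBS. Capitals mark the cyclic AMP response element TGACGTCA, the shorter core TGACG, and the D-box TTANGTAA, the site of the clock output factor Dbp, searched on both strands. The window of Slc25a16 is chr10:62920383-62920632 (plus strand), and that of Slc25a25 is chr2:32424067-32424316 (minus strand), 1 of 3 start sites listed for that gene.
Slc25a16: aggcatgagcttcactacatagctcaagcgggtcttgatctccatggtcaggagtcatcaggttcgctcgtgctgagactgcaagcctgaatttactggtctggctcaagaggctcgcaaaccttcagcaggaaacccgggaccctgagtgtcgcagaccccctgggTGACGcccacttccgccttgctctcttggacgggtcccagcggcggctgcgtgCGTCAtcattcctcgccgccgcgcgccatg
Slc25a25: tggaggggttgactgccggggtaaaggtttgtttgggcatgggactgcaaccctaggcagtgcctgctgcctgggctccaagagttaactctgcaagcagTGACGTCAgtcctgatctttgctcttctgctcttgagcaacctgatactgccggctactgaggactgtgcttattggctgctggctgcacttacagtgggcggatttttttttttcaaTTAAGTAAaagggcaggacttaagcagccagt

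Slc25a16 held 2 copies of the core, at -83 and -30 from the start site. The core was found before a start site of 10 of the 30 members and of 28.3% of the 12279 tested genes with a promoter sequence. In the window shown, Slc25a25 held a full cyclic AMP response element at -150 and a D-box at -32. The windows before its other listed start sites held neither of them and no core. The full element was found in 2 members, Slc25a25 and Slc25a36, and in 2.74% of tested genes, and the D-box in 1 member and 1.73% of tested genes. The core lies within the full element, so its count includes the full ones. E-boxes (CACGTG), which bind clock activators, were present in 6 members and in 9.43% of tested genes. These are letter matches, and the counts per gene do not say which start site was used.

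Carriers of enzyme cofactors held both calls, where 5.33% of all tested genes were called higher. The 5 carriers of this group that the selection rule kept had a median log2 fold change of 0.61. All 5 were positive, as were 49.0% of all tested genes. Slc25a51 (gene 230125; chromosome 4, 45395923 to 45408917) imports NAD+ into mitochondria. It stood at 342, 351 and 257 CPM in Rb2 1, 3 and 4, against 198, 210 and 213 CPM in PBS 1, 2 and 4. Every Rb2 library lay above every PBS library, and Rb2 4 was the nearest to PBS. The log2 fold change was 0.61 ± 0.16 SE (adjusted p = 0.0395). This call also passed with the DESeq2 Wald test (adjusted p = 0.00135), but not with limma-voom (adjusted p = 0.0532), with library size alone as scaling (adjusted p = 0.0725), with an offset for GC and length (adjusted p = 0.0569) or with the muscle covariate (adjusted p = 0.0913).

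Slc25a16 (gene 73132) is a carrier linked to coenzyme A through its yeast relative. It stood at 53.3, 36.2 and 25.4 CPM in Rb2 1, 3 and 4, against 19.7, 16.2 and 17.9 CPM in PBS 1, 2 and 4. The Rb2 libraries were spread over a wider range than the PBS libraries and did not overlap with them. The log2 fold change was 1.09 ± 0.25 SE (adjusted p = 0.0332), the largest of any member detected at 1 CPM or more. With limma-voom the adjusted p was 0.051, with the muscle covariate 0.0771 and with the GC and length offset 0.055. Of the 6 fits that each left out a library, the 1 without Rb2 4 called Slc25a16 (1.31, adjusted p = 0.0065) and Slc25a51 (0.74, adjusted p = 0.014), and the others called neither.

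Slc25a32, a carrier of folate and flavin adenine dinucleotide, had 41.0, 39.9 and 24.1 CPM in Rb2 1, 3 and 4, against 24.5, 21.4 and 21.5 CPM in PBS 1, 2 and 4. Rb2 4 lay within the PBS range, while Rb2 1 and 3 lay above it (log2 fold change 0.64 ± 0.20 SE, adjusted p = 0.0671). Slc25a26, which imports S-adenosylmethionine, averaged 19.8 ± 1.32 CPM with Rb2 and 16.8 ± 3.12 CPM with PBS (SD, n = 3 each; adjusted p = 0.326).

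**Figure D2:**
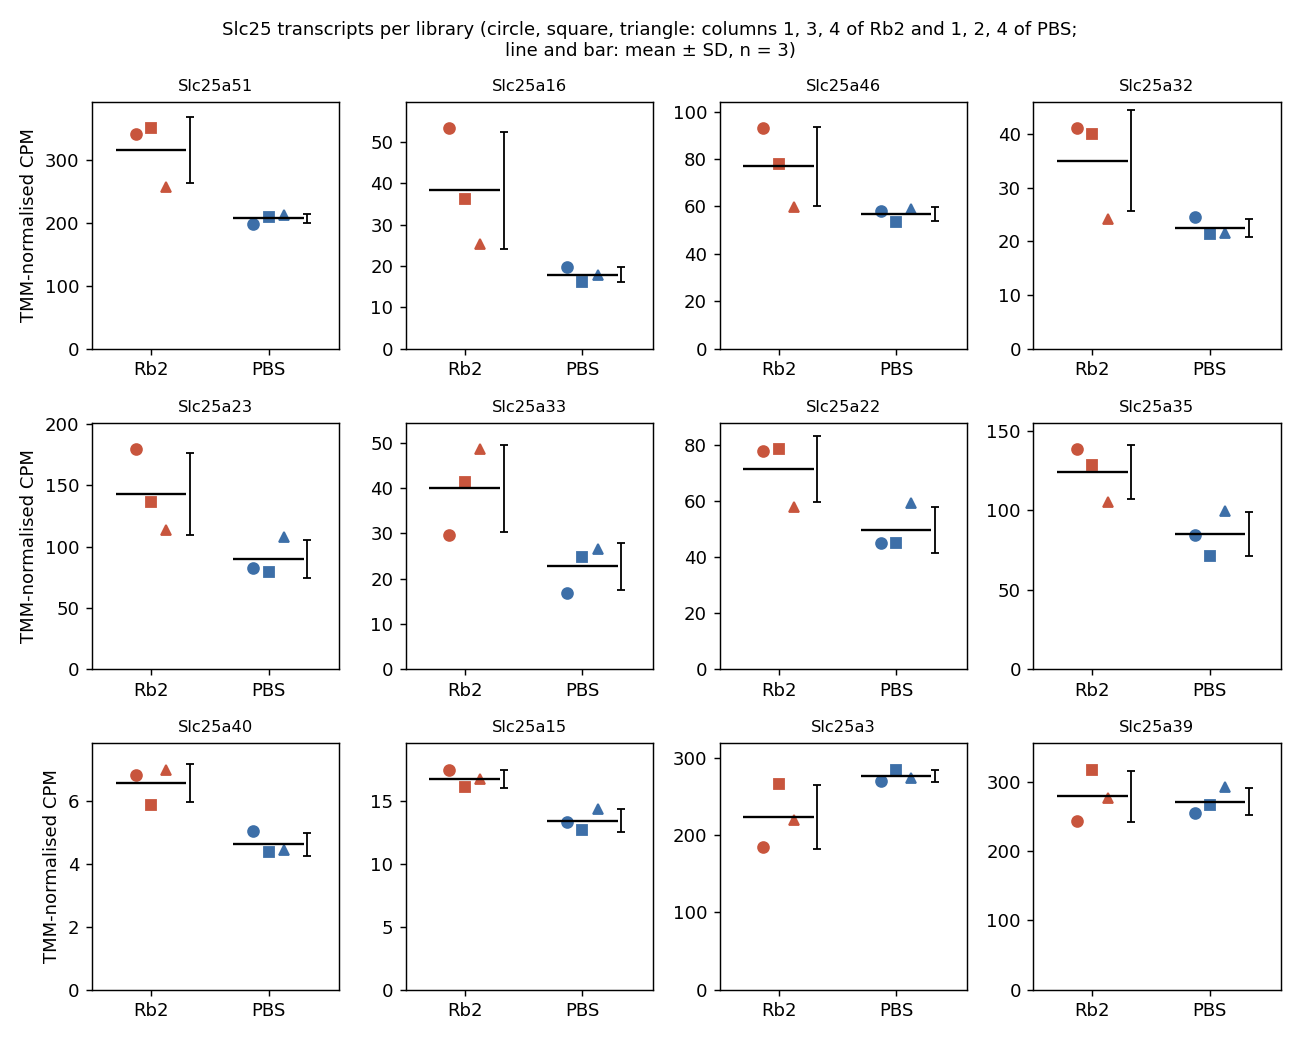
TMM-normalised CPM (y axis) of 12 Slc25 members in each library, Rb2 left and PBS right, with the mean and SD of 3 libraries. Slc25a51 and Slc25a16 are separated, Slc25a39 overlaps fully, and Slc25a3 is the 1 panel with lower values in all Rb2 libraries.

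Of 7 tested carriers of nucleotides 4 had a positive and 3 a negative log2 fold change, and 0 passed. Slc25a25, a calcium-regulated carrier that exchanges ATP-magnesium for phosphate, had the lowest log2 fold change of the family, -2.25 ± 0.50 SE. It stood at 6.35, 2.61 and 5.53 CPM in Rb2 1, 3 and 4, against 29.9, 27.1 and 12.0 CPM in PBS 1, 2 and 4. The groups did not overlap, PBS 4 lay between the Rb2 libraries and the other PBS libraries, and the adjusted p was 0.051. It passed with limma-voom (adjusted p = 0.0341), the DESeq2 Wald test (adjusted p = 0.000477), library size alone (adjusted p = 0.0456), a count minimum of 50 (adjusted p = 0.0452), the GC and length offset (adjusted p = 0.04998) and without PBS 4 (adjusted p = 0.0168). It did not pass with the muscle covariate (-2.09, adjusted p = 0.168) or DESeq2 size factors (adjusted p = 0.0523). No filter (adjusted p = 0.0783) and a block on the column numbers both groups share (adjusted p = 0.125) did not call it either. Of the 6 fits that each left out a library, only the 1 without PBS 4 called it. Without PBS 1 and PBS 2 the log2 fold change was -1.31. The adjusted p over all alternatives ran from 0.000477 to 0.356. Slc25a25 overlaps Naif1, a gene at 1.04 CPM, by 1014 bases.

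Its close relative Slc25a23 stood at 180, 136 and 114 CPM in Rb2 1, 3 and 4, against 82.3, 79.1 and 108 CPM in PBS 1, 2 and 4. The groups were separated by a narrow gap between Rb2 4 and PBS 4, and the log2 fold change was 0.67 ± 0.20 SE (adjusted p = 0.0561). Slc25a24, another carrier of this kind, overlapped between groups (5.29 ± 0.81 CPM with Rb2 and 5.98 ± 1.11 CPM with PBS, SD, n = 3 each; adjusted p = 0.572). These 3 carriers thus had log2 fold changes of 0.67, -0.18 and -2.25, none past the threshold, and the differences between them were not tested.

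Slc25a33 and Slc25a36 carry pyrimidine nucleotides. Slc25a33 had 29.7, 41.4 and 48.6 CPM in Rb2 1, 3 and 4, against 16.7, 24.8 and 26.6 CPM in PBS 1, 2 and 4, without overlap (log2 fold change 0.81 ± 0.22 SE, adjusted p = 0.0526). Slc25a36 averaged 41.2 ± 6.37 CPM with Rb2 and 32.6 ± 2.99 CPM with PBS (SD, n = 3 each; adjusted p = 0.152). Slc25a17, a carrier of the peroxisomal membrane, averaged 53.8 ± 9.65 CPM with Rb2 and 42.8 ± 4.74 CPM with PBS (adjusted p = 0.19). Slc25a31, an ADP/ATP carrier of germ cells, was under 1 CPM in every library, and Slc25a41 had 3 counts in PBS 4 and none elsewhere.

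Among carriers of amino acids and dicarboxylates the lowest ratios belonged to Slc25a10 and Slc25a12. Slc25a10, which exchanges malate and succinate for phosphate, stood at 8.44, 15.9 and 12.4 CPM in Rb2 1, 3 and 4, against 81.4, 62.4 and 19.1 CPM in PBS 1, 2 and 4. PBS 4 was much nearer to the Rb2 libraries than to the other PBS libraries. The log2 fold change was -2.15 ± 0.62 SE (adjusted p = 0.0981), -1.44 (adjusted p = 0.0562) with the muscle covariate and -0.64 (adjusted p = 0.473) with PBS 1 and PBS 2 left out. It passed with the DESeq2 Wald test (adjusted p = 0.00583) and without PBS 4 (-2.57, adjusted p = 0.00594).

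Slc25a12, the aspartate-glutamate carrier of the malate-aspartate shuttle in muscle and brain, had 2.83, 4.28 and 3.87 CPM in Rb2 1, 3 and 4, against 10.3, 27.2 and 6.46 CPM in PBS 1, 2 and 4. PBS 2, the library with the most muscle transcripts, was also the highest for Slc25a12, and PBS 1 was second in both. PBS 4 had a lower muscle marker sum (69.9 CPM) than Rb2 3 (543 CPM) and Rb2 4 (346 CPM), and its Slc25a12 value was above those of both. The log2 fold change was -2.0 ± 0.60 SE (adjusted p = 0.101). It passed with the DESeq2 Wald test (adjusted p = 0.0112) and without PBS 4 (-2.38, adjusted p = 0.0323). It was -1.20 without PBS 2 (adjusted p = 0.0574), -1.32 with the muscle covariate (adjusted p = 0.0951) and -0.82 without PBS 1 and PBS 2 (adjusted p = 0.368). The part of muscle RNA in the Slc25a12 and Slc25a10 values was not tested beyond these fits. Slc25a13, its liver paralog, was under 1 CPM in every library.

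**Figure D3:**
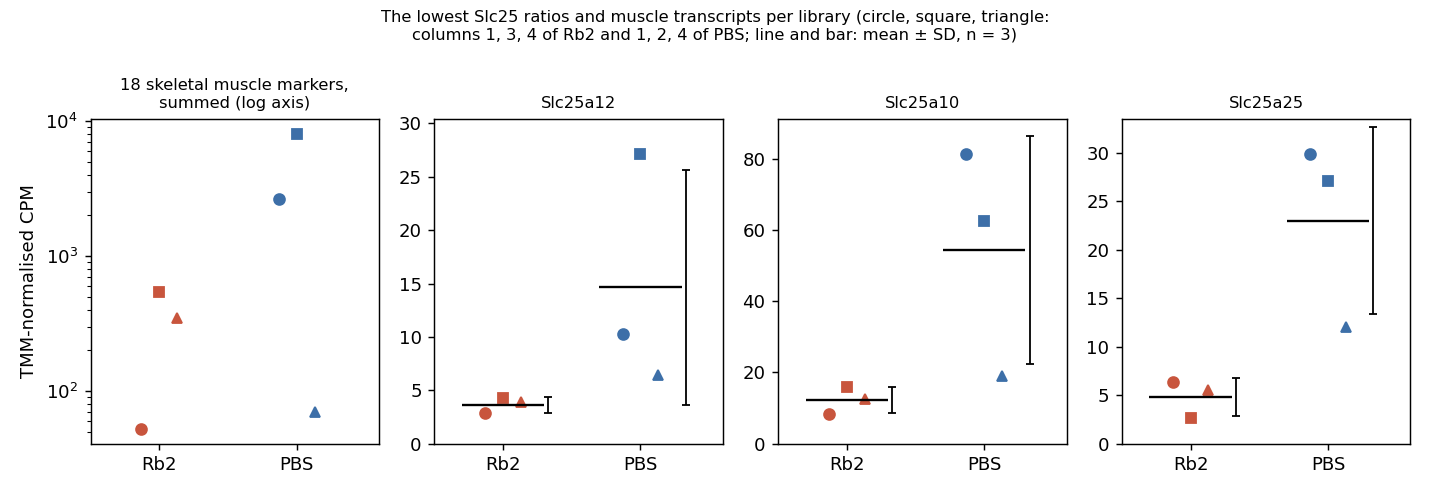
Summed CPM of 18 skeletal muscle markers (left, log axis) and CPM of Slc25a12, Slc25a10 and Slc25a25 in each library, with the mean and SD of 3 libraries for the carriers. PBS 1 and PBS 2 lie above the other libraries in all 4 panels, though for Slc25a12 PBS 1 (10.3 CPM) is far below PBS 2 (27.2 CPM). Of the PBS libraries, PBS 4 is low for muscle markers and lies nearest to the Rb2 libraries for each carrier.

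Slc25a22, a glutamate carrier, had 78.1, 78.7 and 57.9 CPM in Rb2 1, 3 and 4, against 45.1, 44.9 and 59.3 CPM in PBS 1, 2 and 4. Only Rb2 4 and PBS 4 crossed, and the log2 fold change was 0.52 ± 0.17 SE (adjusted p = 0.0733). Its relative Slc25a18 was under 1 CPM throughout, and Slc25a21, the oxodicarboxylate carrier, had at most 9 counts in a library and was not tested. Slc25a15, which carries ornithine, had 17.4, 16.1 and 16.7 CPM in Rb2 1, 3 and 4, against 13.3, 12.6 and 14.4 CPM in PBS 1, 2 and 4. The spread within each group was narrow and the groups did not overlap, but the log2 fold change was 0.32 ± 0.12 SE (adjusted p = 0.114). Slc25a29, a carrier of basic amino acids (0.54, adjusted p = 0.22), and Slc25a2, a second ornithine carrier with 1 to 19 counts per library (1.24 ± 0.71 SE, adjusted p = 0.267), did not pass either.

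Carriers tied to iron, heme and glutathione held no call. Slc25a40, a glutathione importer, had 6.84, 5.89 and 7.00 CPM in Rb2 1, 3 and 4, against 5.06, 4.40 and 4.45 CPM in PBS 1, 2 and 4 (log2 fold change 0.51 ± 0.16 SE, adjusted p = 0.071). Its more abundant paralog Slc25a39 had 243, 317 and 276 CPM in Rb2 1, 3 and 4, against 255, 266 and 293 CPM in PBS 1, 2 and 4. The groups overlapped fully, at a log2 fold change of 0.04 ± 0.15 SE (adjusted p = 0.884) that turned to -0.05 with library size alone. The mitoferrins, which import iron, stood on different sides: Slc25a28 at 17.4 ± 0.77 CPM with Rb2 and 22.4 ± 1.97 CPM with PBS (log2 fold change -0.36, adjusted p = 0.0848), Slc25a37 at 7.82 ± 1.44 CPM with Rb2 and 6.69 ± 0.59 CPM with PBS (0.23, adjusted p = 0.401). Slc25a38, which supplies glycine for heme synthesis, was at 0.11 (adjusted p = 0.694). Of 8 erythroid markers the 4 haemoglobin genes fell, and the list summed to 480 to 794 CPM in Rb2 libraries and 1036 to 1452 CPM in PBS libraries. Epb42 of this list was separated upward without passing (0.225 CPM with Rb2 and 0.0207 CPM with PBS, adjusted p = 0.058). The part of erythroid transcripts in the carrier values was not tested.

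Slc25a3, the phosphate carrier that feeds ATP synthase, had 184, 266 and 220 CPM in Rb2 1, 3 and 4, against 271, 285 and 274 CPM in PBS 1, 2 and 4. The PBS libraries were close together and all lay above the Rb2 libraries, by a margin smaller than the spread within Rb2 (log2 fold change -0.31 ± 0.16 SE, adjusted p = 0.227). Of the relatives of the uncoupling proteins, Slc25a27 had 1.35, 1.78 and 2.09 CPM in Rb2 1, 3 and 4, against 1.01, 0.982 and 1.13 CPM in PBS 1, 2 and 4 (0.74 ± 0.26 SE, adjusted p = 0.0938). Slc25a14 (0.10) and Slc25a30 (-0.19) overlapped between groups. Under their own symbols, Ucp2 fell (33.7 CPM with Rb2 and 47.3 CPM with PBS; -0.49 ± 0.11 SE, adjusted p = 0.029), while Ucp3 (0.46, adjusted p = 0.08) and Ucp1 (-0.12, adjusted p = 0.749) did not pass.

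Among members with another or an unsettled role, Slc25a35 was the most abundant, with 139, 128 and 105 CPM in Rb2 1, 3 and 4, against 84.4, 71.4 and 99.3 CPM in PBS 1, 2 and 4. The groups did not overlap (log2 fold change 0.55 ± 0.16 SE, adjusted p = 0.0624). Slc25a46, an outer membrane protein involved in mitochondrial shape, averaged 76.8 ± 16.6 CPM with Rb2 and 56.7 ± 3.05 CPM with PBS (SD, n = 3 each; adjusted p = 0.112). Slc25a45 averaged 2.26 ± 0.20 CPM with Rb2 and 3.40 ± 0.11 CPM with PBS, without overlap (-0.59 ± 0.19 SE, adjusted p = 0.0766). Slc25a34 (-0.84, adjusted p = 0.122), Slc25a48 (0.89, adjusted p = 0.197) and Slc25a53 (-0.50, adjusted p = 0.426) did not pass. Slc25a47, a carrier enriched in liver, was at 1.72, 1.89 and 2.49 CPM in Rb2 1, 3 and 4, against 1.53, 1.62 and 1.49 CPM in PBS 1, 2 and 4 (adjusted p = 0.286). The 8 hepatocyte markers summed to 43.9, 2.02 and 38.3 CPM in Rb2 1, 3 and 4, against 3.91, 1.23 and 2.39 CPM in PBS 1, 2 and 4. Their part in the Slc25a47 values was not tested. Slc25a43 had at most 11 counts in a library and Slc25a54 had none in any.

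Levels of different carriers were compared as CPM per kilobase of transcript. With Rb2, Slc25a39 (165 ± 22.2) stood above Slc25a3 (139 ± 25.6, SD, n = 3 each), by little more than the SD of either. With PBS, Slc25a3 (172 ± 4.62) and Slc25a39 (161 ± 11.6) differed by less than the SD of Slc25a39. Slc25a51 (71.3 ± 11.7 with Rb2, 46.7 ± 1.77 with PBS) and Slc25a35 (67.9 ± 9.32 with Rb2, 46.5 ± 7.62 with PBS) ranked 4 and 5 in both groups and could not be ordered between themselves. Slc25a10 ranked 16 with Rb2 (6.06 ± 1.84) and 6 with PBS (26.8 ± 15.8). The 6 members above 100 CPM on average included Slc25a39, Slc25a51, Slc25a3, Slc25a23 and Slc25a35, and all 40 members together took 0.187%, 0.205% and 0.182% of the counts in Rb2 1, 3 and 4, against 0.154%, 0.172% and 0.182% in PBS 1, 2 and 4.

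**Figure D4:**
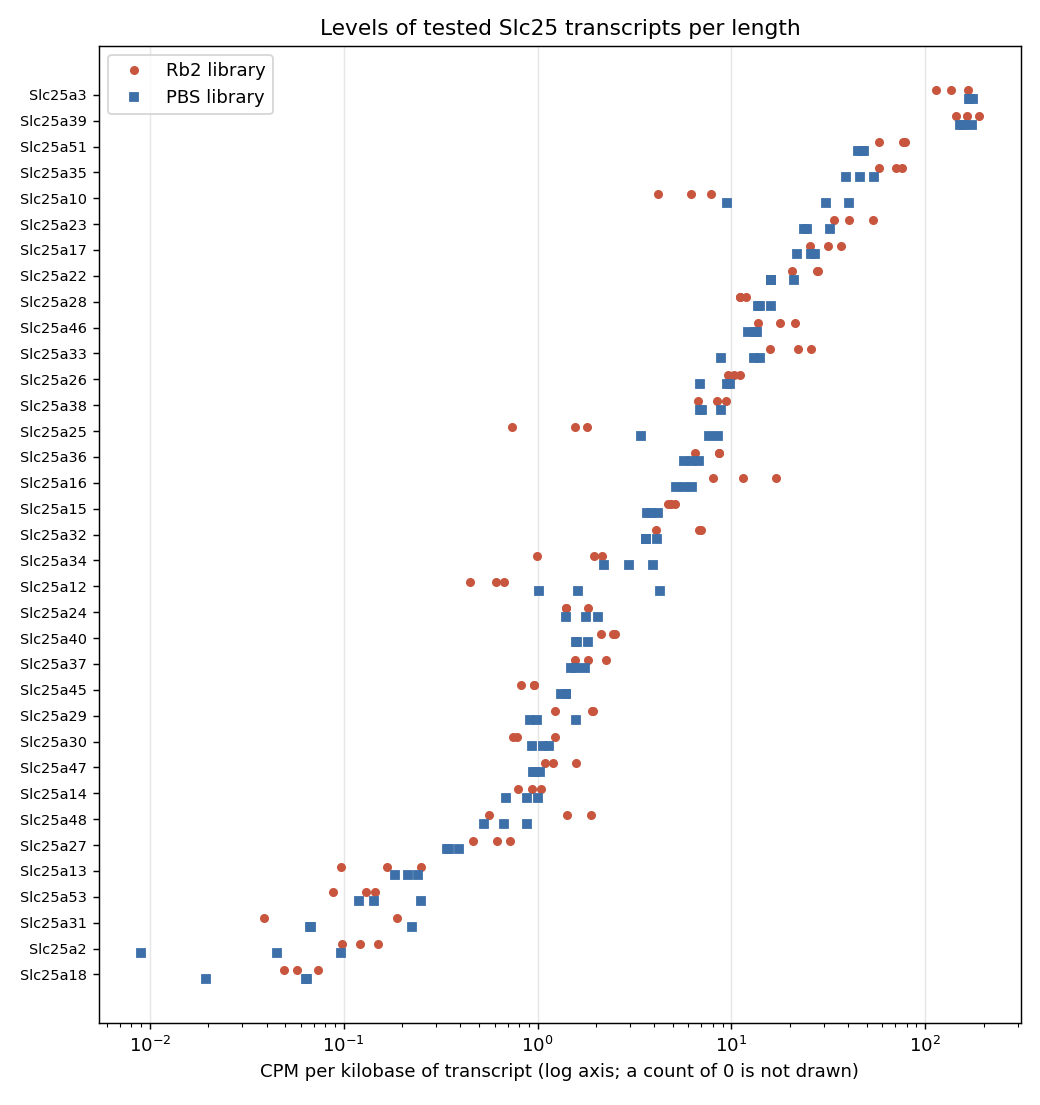
CPM per kilobase of transcript (x axis, log scale) of 35 of the 36 tested Slc25 members in each library, ordered by the PBS mean. Slc25a3 and Slc25a39 lie at the top in both groups, and the Rb2 points of Slc25a10, Slc25a25 and Slc25a12 stand left of their PBS points.

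Genes that work beside the carriers were taken from 9 lists. Of 74 tested partner genes 5 rose and 1 fell, which is 8.11%, against 10.4% of all tested genes. Of these rises 3 were in the list of iron-sulfur cluster and heme synthesis (3 of 12 tested, median log2 fold change 0.35). Alas1, the first enzyme of heme synthesis, averaged 182 CPM with Rb2 and 99.3 CPM with PBS (log2 fold change 0.88 ± 0.19 SE, adjusted p = 0.0233). Isca1, an iron-sulfur assembly factor (0.60 ± 0.14 SE, adjusted p = 0.0285), and Fech, which inserts iron into protoporphyrin to form heme (0.54 ± 0.14 SE, adjusted p = 0.0404), rose as well. In glutathione metabolism Gss, glutathione synthetase, was the 1 call of 8 (24.0 CPM with Rb2 and 13.1 CPM with PBS, 0.88 ± 0.19 SE, adjusted p = 0.0243). The median log2 fold change of that list was 0.16. Its summed CPM went the other way, from 1482 to 1826 in Rb2 libraries and from 1994 to 2153 in PBS libraries. Among 15 other inner membrane transporters, which include the pyruvate carrier, the calcium uniporter and the sideroflexins, Slc8b1, the mitochondrial sodium-calcium exchanger, rose (0.76 ± 0.20 SE, adjusted p = 0.0411).

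No gene passed in the other lists, apart from Ucp2 in the list of carrier relatives under other symbols. Of 12 genes that import carriers into the inner membrane, Timm13 had the smallest p (79.9 CPM with Rb2 and 127 CPM with PBS; log2 fold change -0.67, adjusted p = 0.0696). Among 4 enzymes of the malate-aspartate shuttle it was Mdh1 (0.33, adjusted p = 0.192), and among 9 tested genes of mitochondrial one-carbon metabolism Amt (0.96, adjusted p = 0.0528). In ornithine and proline metabolism Aldh4a1 was at 0.48 (adjusted p = 0.0515; 6 genes tested). Vdac1 (0.36, adjusted p = 0.138) had the smallest p of the 3 outer membrane channels, all of which were separated upward without passing. The carrier relatives Mtch1 (-0.17) and Mtch2 (0.22) did not pass.

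The fits differed in how many members they called. The DESeq2 Wald test called 14 of 39 members, 9 higher (background 6.46%) and 5 lower (background 6.31%), where it called 12.8% of all its genes. Those shares are over 24690 genes, which include low-count genes such as Slc25a2 that got no adjusted p. They are therefore not on the same base as shares over the 16707 genes tested by edgeR. Beyond Slc25a51 and Slc25a16, the Wald test calls included Slc25a22, Slc25a23, Slc25a32, Slc25a33, Slc25a35 and Slc25a40, higher, and Slc25a10, Slc25a12, Slc25a25, Slc25a34 and Slc25a45, lower. Limma-voom called 1 member, Slc25a25, and 7.18% of all genes. With edgeR, 2 members were called with DESeq2 size factors (10.5% of all genes), with library size alone (7.61%) and with no filter (6.41%). A count minimum of 50 gave 6 members (15.9%) and the GC and length offset 5 (8.15%). With the muscle covariate 0 members passed (4.99%), while 16 had an unadjusted p under 0.05, against 19 (30.0% of all genes) without it. The share of all genes under that unadjusted p with the covariate is not given here.

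Leaving out 1 library gave between 0 and 9 members. Without Rb2 4, 9 members rose and 0 fell. That fit called 13.3% of all genes in either direction, 1200 of 17087 higher and 1069 lower. Without PBS 4, 5 members were called (9.09% of all genes), among them Slc25a23 higher and Slc25a10, Slc25a12 and Slc25a25 lower. Without Rb2 1 (3.19%), Rb2 3 (3.48%), PBS 1 (1.95%) or PBS 2 (1.77%) the count of members was 0, with 14 to 16 at an unadjusted p under 0.05. These percentages are for the adjusted p. Shares of all genes under the unadjusted p in these fits are not given, so those counts have no background here. Without both PBS 1 and PBS 2 no gene passed (0.0%), and 5 members had an unadjusted p under 0.05, against 11.6% of all genes. A fit that blocks on the column numbers both groups share, which the labels do not describe as a pairing, called 0 members and 0.307% of all genes.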

How the data were processed

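Brown fat of 3 Rb2 mice and 3 PBS mice was profiled by RNA-seq. The authors deposited raw read counts per gene in 1 table, and the count columns carry a group and a number that could not be tied to the titles. Libraries are therefore named by those column numbers (Rb2 1, 3 and 4; PBS 1, 2 and 4). The submitters' processing notes name the mm10 genome and the programs Trimmomatic, HISAT2, Bowtie2 and StringTie. For their roles, the counting program and its strand setting: not given in the sources used here. Total counts ran from 83642183 to 92666780 per library, and a count of 0 allows up to 3 counts, which is 0.0307 to 0.037 CPM and covers counting error only. Pearson r between libraries over log2(CPM + 0.5) of the tested genes ran from 0.946 to 0.99, so no library was a copy of another.

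Counts were tested over the whole table with the quasi-likelihood test of edgeR 4.0.16 in R 4.3.3 (TMM factors, robust dispersions, filterByExpr with a minimum count of 10 and a total of 15), which left 16707 of 45777 genes. The threshold was a Benjamini-Hochberg adjusted p of 0.05 over all of these. CPM uses the TMM-scaled library size. Each SE was derived from the fold change (log2 scale) and the F statistic. The labels do not say that a number pairs animals. Alternatives were DESeq2 1.42.0 size factors and Wald test, limma 3.58.1 voom, library size alone, no filter, a count minimum of 50, a covariate made of the mean log2 CPM of muscle markers, a GC and length offset (natural splines with 5 degrees of freedom, 94.4% of tested genes), left-out libraries and a replicate block. The test was tried on simulated counts.

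Described with values per library are the members past the threshold, the 6 with the highest mean CPM, and the member with the smallest p in each role group without a call; any others were picked after their values were seen. The values of 1 member are not reported here; it is counted in the totals. Members, lists and motifs were chosen with earlier results of these data known. Lengths are those of the longest GENCODE M21 transcript linked to a RefSeq accession of the deposited table, and positions and promoters come from RefSeq on GRCm38.p6, the assembly of mm10.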

Additional observations from a re-analysis of the deposited data

How the results depend on the processing

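Of the planned fits, DESeq2 size factors, library size alone and no filter left 2 Slc25 calls, though with library size alone they were Slc25a16 and Slc25a25. The count of members called was 14 with the DESeq2 Wald test, 6 with a count minimum of 50 (15.9% of all genes called), 5 with the GC and length offset (8.15%), 1 with limma-voom and 0 with the muscle covariate (4.99%; 16 members had an unadjusted p under 0.05). It ran from 0 to 9 when 1 library was left out. It was 0 without PBS 1, PBS 2, Rb2 1 or Rb2 3 (14 to 16 members with an unadjusted p under 0.05), 5 without PBS 4 and 9 without Rb2 4. Without both PBS 1 and PBS 2 it was 0, as was that of all genes in edgeR, with 5 members and 2063 genes at an unadjusted p under 0.05. That fit assumes that PBS 4 varies like the Rb2 libraries. Over all genes the count was 1743, against 3153 with the Wald test, 833 with the muscle covariate and 303 to 2269 with 1 library left out. Library size alone gave 492 higher and 779 lower, against 890 and 853, and moved the median log2 fold change of all genes to -0.10. Partner genes called numbered 6, against 2 with library size alone, 16 with the Wald test, 11 with a count minimum of 50, 1 with the muscle covariate, 0 without PBS 1 and PBS 2, and 0 to 15 with 1 library left out.

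The column numbers 1 and 4 occur in both groups. Libraries with the same number did not deviate together (correlations of -0.197 and -0.215), and the labels do not say what the numbers stand for, so they were not taken as pairs. A fit of those 4 libraries with the replicate block called 52 genes, 0 members (5 at an unadjusted p under 0.05) and 0 partner genes. The share of all genes under that unadjusted p is not given here for this block, the muscle covariate or the fits without 1 library.

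The 6 members whose sign changed passed in none of the fits. Without PBS 1 and PBS 2, Slc25a14 was at -0.128, Slc25a18 at -0.0929, Slc25a24 at 0.14, Slc25a31 at 0.159, Slc25a38 at -0.11 and Slc25a39 at -0.0696. With the replicate block Slc25a31 was at -3.34, Slc25a38 at -0.0533 and Slc25a39 at -0.0775, and with library size alone Slc25a39 was at -0.0469. With 1 library left out Slc25a14 ran from -0.037 to 0.208, Slc25a18 from -0.102 to 0.499, Slc25a31 from -2.61 to 0.147, Slc25a38 from -0.0064 to 0.234 and Slc25a39 from -0.0635 to 0.132. The cause of these changes was not tested. Depth limits Slc25a2, Slc25a13, Slc25a18, Slc25a31 and Slc25a53, the 5 tested members under 1 CPM.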
